A study of Homo sapiens with 12 samples.

Results

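The genes described here are 8 transcription factors that set lineage in the biliary tree and the neighbouring foregut organs, namely SOX9, HNF4A, FOXA1, FOXA2, GATA4, GATA6, ONECUT1 and PDX1. They were chosen by symbol, each symbol matched a single Ensembl identifier, and all 8 were found among the 60651 genes of the table. They were followed in 12 RNA sequencing libraries of 2 established cholangiocarcinoma cell lines, both labelled wild type. EGI-1 cells, grown in DMEM, received vehicle (DMSO), 0.5 µM decitabine, 200 nM talazoparib or both drugs, here called the combination. HUCCT1 cells, grown in RPMI1640, received vehicle or 1 µM decitabine. Every treatment lasted 72 h and every arm has 2 libraries, which nothing in the labels describes as separate cultures, so that p-values measure only the spread between these libraries. Decitabine is a cytidine analogue that traps DNA methyltransferases, and talazoparib inhibits the repair enzyme PARP. The library names of the talazoparib arm carry a number other than the labelled dose. Line, medium and a code in the library names that differs between the lines, and that no label explains, cannot be told apart.

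The forkhead factors FOXA1 and FOXA2 open chromatin in early endoderm, where the zinc finger factors GATA4 and GATA6 act beside them. HNF4A is a nuclear receptor of hepatocyte, gut and pancreatic epithelium, ONECUT1 (also called HNF6) takes part in biliary and pancreatic development, SOX9 marks bile duct cells and their progenitors, and PDX1 sets pancreatic and duodenal identity. Bile duct epithelium typically keeps SOX9 while the hepatocyte programme under HNF4A is low.

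Because decitabine acts on methylation at CG sites, the bases directly upstream of the annotated start are shown for the 4 members with a RefSeq window on GRCh38.p14, written 5′ to 3′ with each CG in capitals.
ONECUT1, chr15:52790337-52790586, minus strand: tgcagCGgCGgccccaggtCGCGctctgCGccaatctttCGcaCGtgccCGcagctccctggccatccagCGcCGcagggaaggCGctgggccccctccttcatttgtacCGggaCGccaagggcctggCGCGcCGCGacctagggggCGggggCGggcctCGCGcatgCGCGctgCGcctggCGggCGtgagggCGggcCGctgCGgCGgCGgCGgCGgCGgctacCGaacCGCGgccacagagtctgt
FOXA1, chr14:37595349-37595499, minus strand: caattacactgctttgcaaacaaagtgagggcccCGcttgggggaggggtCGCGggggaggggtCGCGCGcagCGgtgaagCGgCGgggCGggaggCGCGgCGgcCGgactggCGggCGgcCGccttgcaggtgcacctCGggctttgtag
GATA6, chr18:22169339-22169588, plus strand: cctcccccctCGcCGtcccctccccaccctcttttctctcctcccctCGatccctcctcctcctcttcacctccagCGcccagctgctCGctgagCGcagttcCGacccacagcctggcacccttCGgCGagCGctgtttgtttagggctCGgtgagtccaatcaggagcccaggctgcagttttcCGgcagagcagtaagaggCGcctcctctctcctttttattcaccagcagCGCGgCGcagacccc
HNF4A distal start, chr20:44355449-44355698, plus strand: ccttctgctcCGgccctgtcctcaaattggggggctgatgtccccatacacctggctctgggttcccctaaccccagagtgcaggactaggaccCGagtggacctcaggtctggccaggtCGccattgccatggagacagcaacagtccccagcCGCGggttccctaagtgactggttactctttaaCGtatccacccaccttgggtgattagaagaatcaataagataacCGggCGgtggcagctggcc
HNF4A proximal start, chr20:44400989-44401238, plus strand: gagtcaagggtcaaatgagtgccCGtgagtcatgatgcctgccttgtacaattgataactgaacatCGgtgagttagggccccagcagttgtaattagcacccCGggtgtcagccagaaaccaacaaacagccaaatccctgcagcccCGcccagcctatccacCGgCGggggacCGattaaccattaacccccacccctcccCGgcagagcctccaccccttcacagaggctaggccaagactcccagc
The motif searched was CG, which reads the same on both strands. ONECUT1 holds 37 CG in its 250 upstream bases, and 4.0% of 35116 such windows hold at least as many. The median window holds 11. FOXA1 holds 26 CG in its 250 bases (19.6% of windows hold at least as many), of which the 151 bases farthest from the start are printed because the other 99 are exonic in another transcript. GATA6 holds 16 (41.0%), and each of the HNF4A windows holds 8 (56.3%). The RefSeq starts of ONECUT1 and FOXA1 and the proximal start of HNF4A lie inside the longer GENCODE 44 gene spans, where the printed bases are in no annotated exon. Part of the GATA6 window is exonic in GATA6-AS1 on the other strand. Methylation at these positions was not measured in these libraries, and the counts of CG describe the sequence only.

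On GRCh38 with GENCODE 44, SOX9 (ENSG00000125398.8) lies at chr17:72121020-72126416 and HNF4A (ENSG00000101076.17) at chr20:44355699-44432845, both on the plus strand. FOXA1 (ENSG00000129514.8) lies at chr14:37589552-37596059 and FOXA2 (ENSG00000125798.15) at chr20:22580998-22585455, both on the minus strand. GATA4 (ENSG00000136574.18) lies at chr8:11676959-11760002 and GATA6 (ENSG00000141448.11) at chr18:22169589-22202528, on the plus strand. ONECUT1 (ENSG00000169856.9) lies at chr15:52755053-52791078 on the minus strand and PDX1 (ENSG00000139515.6) at chr13:27920000-27926313 on the plus strand.

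Total counts lay between 23139065 and 34965627 per library. Levels are CPM, the count relative to the library total, scaled with TMM factors over all 12 libraries, and a level compared between genes is CPM per kb of exon. The duct keratin KRT19 was high in both lines, with vehicle means of 1520 ± 57.9 CPM in EGI-1 and 2760 ± 431 CPM in HUCCT1 (SD, n = 2). KRT7, also a duct keratin, was much lower in EGI-1 vehicle than in HUCCT1 vehicle (log2 difference 7.42, HUCCT1 against EGI-1). The hepatocyte genes ALB and TTR had at most 3 counts in any library, but 6 of 33 hepatocyte genes averaged at least 1 CPM in EGI-1 vehicle and 5 in HUCCT1 vehicle, with sums of 36.5 to 42.2 and 66.5 to 92.8 CPM. In those arms 24 and 21 of the 33 had at most 3 counts in each library. SERPINA1, also a hepatocyte gene, was higher in HUCCT1 vehicle than in EGI-1 vehicle (log2 difference 1.51). The duct genes SPP1, CFTR and AQP1 stayed under 1 CPM on average in EGI-1 and in HUCCT1 vehicle. One EGI-1 combination library, replicate 2, stood apart. It held 381 counts of PTPRC, the pan-leukocyte gene, where the other 11 libraries held at most 7, and 148 counts of CD3E, a T cell gene that had at most 23 elsewhere. Its summed leukocyte marker level was 24.4 CPM against 3.92 CPM in the other combination library and 2.77 to 4.93 CPM in the remaining EGI-1 libraries. The B cell gene MS4A1 had 5 counts in it and 0 in all others. PTPRC, CD3E and MS4A1 are named here after their values were seen. The members' combination results are given with and without it, and the part of leukocyte RNA in them was not tested.

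Which factors the untreated cells express was compared between the vehicle arms. Within the FOXA pair, the line with more FOXA1 had less FOXA2. FOXA1 led the forkhead factors in EGI-1, at 111 and 117 CPM, and was lower in HUCCT1, at 22.8 and 26.6 CPM. FOXA2 ran the other way, at 1.05 and 1.37 CPM in EGI-1 and 62.3 and 84.6 CPM in HUCCT1. The arms did not overlap for either gene, and HUCCT1 against EGI-1 gave log2 fold changes of -2.21 (SE 0.101, adjusted p = 5.2e-14) for FOXA1 and 5.93 (SE 0.2, adjusted p = 9.3e-15) for FOXA2 (edgeR, quasi-likelihood, Benjamini-Hochberg over 25096 genes).

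**Figure D1:**
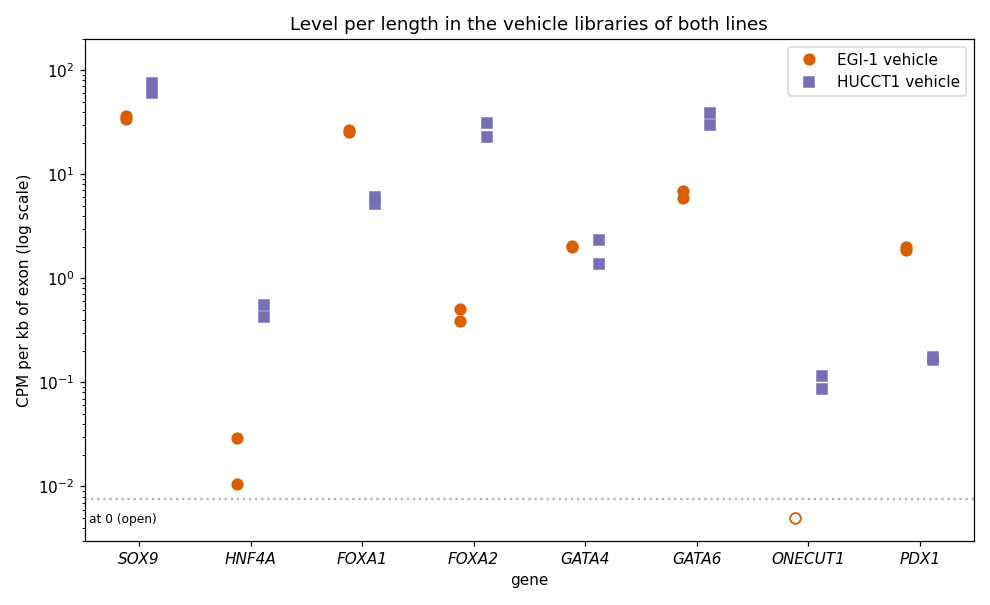
Level of each factor in the 4 vehicle libraries, as CPM per kb of exon on a log axis, with circles for EGI-1, squares for HUCCT1 and open circles for values at 0. SOX9 is the highest of the 8 in both lines, while FOXA1 and PDX1 are higher in EGI-1 and HNF4A, FOXA2, GATA6 and ONECUT1 are higher in HUCCT1.

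GATA6 was at 22.3 and 26.0 CPM in EGI-1 and at 112 and 149 CPM in HUCCT1, a log2 difference of 2.43 (adjusted p = 9e-12). Its partner GATA4 had 9.15 and 8.81 CPM in EGI-1 and 6.03 and 10.3 CPM in HUCCT1, so that the arms overlapped and the log2 difference of -0.14 had a 95% interval from -0.51 to 0.23. Without HUCCT1 vehicle replicate 2 the GATA4 difference was -0.58 and passed (adjusted p = 0.00781). SOX9 reached 132 and 141 CPM in EGI-1 and 240 and 299 CPM in HUCCT1 (log2 difference 0.98, adjusted p = 1.3e-08).

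The pancreatic and hepatic factors split as well. PDX1 had 5.25 and 4.89 CPM in EGI-1 but 0.461 and 0.43 CPM in HUCCT1 (log2 difference -3.5, adjusted p = 1.4e-10). HNF4A was low in both, with 9 and 3 counts in EGI-1 and 130 and 172 counts in HUCCT1 (log2 difference 4.57, adjusted p = 3.4e-10). ONECUT1 was at 0 in all 8 EGI-1 libraries and at 16 and 21 counts in HUCCT1 vehicle, at least 4.91-fold higher against a floor of 3 counts per library. Of the 8 members, 7 were called, where 55.8% of all genes tested were called, 28.5% higher and 27.3% lower. Of the members, 5 were higher and 2 lower. ONECUT1 is counted among the 5, but it passed the filter on low counts only through HUCCT1 and could only come out higher there. With upper-quartile factors the median of all genes in this comparison moved from -0.01 to -0.13 on the log2 scale, and the calls of the members were the same.

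Per length, the order in EGI-1 vehicle was SOX9 (34.8 CPM per kb), FOXA1 (25.9), GATA6 (6.36), GATA4 (2.02), PDX1 (1.95), FOXA2 (0.444), HNF4A (0.0198) and ONECUT1 (0). GATA4 and PDX1 overlapped in it, and the other neighbours did not. In HUCCT1 vehicle it was SOX9 (68.5 CPM per kb), GATA6 (34.3), FOXA2 (27.0), FOXA1 (5.6), GATA4 (1.83), HNF4A (0.49), PDX1 (0.171) and ONECUT1 (0.0999), with GATA6 and FOXA2 overlapping. FOXA2 and GATA6 therefore stood beside SOX9 in HUCCT1, whereas FOXA1 did so in EGI-1.

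The relatives of these factors differed between the lines too. Of the 22 other foregut and hepatobiliary factors tested, 8 were higher and 12 lower in HUCCT1. Over all genes tested between the lines, 28.5% were called higher and 27.3% lower. ONECUT2, a paralog of ONECUT1, was at 150 and 152 CPM in EGI-1 vehicle and 2.34 and 2.31 CPM in HUCCT1 vehicle (log2 difference -6.02, adjusted p = 1.2e-20), the reverse of ONECUT1. CEBPA, a hepatocyte factor, was at least 69.4-fold lower in HUCCT1, NKX6-1, a pancreatic beta cell factor, at least 16.9-fold lower, and SOX17, an endoderm and biliary factor, at least 6.12-fold higher. FOXA3, named after its values were seen because it is the remaining FOXA gene, was higher in HUCCT1 (log2 difference 3.01, adjusted p = 1.6e-09), as FOXA2 was. Among the duct markers, 9 were higher and 5 lower of 18 tested, led by KRT7, a duct keratin, at a log2 difference of 7.42 (adjusted p = 2.2e-21).

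Whether the drugs move these factors in EGI-1 was tested in 1 fit over its 8 libraries and 22406 genes, in which the vehicle arm serves all 3 treatments. SOX9 was the only member called higher in each treated arm. FOXA2, GATA4 and PDX1 also lay above vehicle in each, without a call for either drug alone. Its level was 132 and 141 CPM in vehicle, 179 and 192 with decitabine, 206 and 204 with talazoparib and 263 and 262 in the combination, with no overlap between any pair of these arms. In bulk libraries such as these, more expressing cells and more RNA per cell cannot be told apart. The log2 fold changes against vehicle were 0.44 (SE 0.0594, adjusted p = 0.00124) for decitabine, 0.59 (SE 0.0594, adjusted p = 1.6e-05) for talazoparib and 0.93 (SE 0.0595, adjusted p = 7.4e-09) for the combination. The combination also exceeded decitabine by 0.49 (adjusted p = 4.1e-05) and talazoparib by 0.35 (adjusted p = 0.00365) on the log2 scale. Without the combination library with leukocyte markers these 3 combination changes were 0.94, 0.49 and 0.36 and stayed called (adjusted p = 4.8e-07, 0.00114 and 0.0414). The decitabine call was lost without EGI-1 vehicle replicate 1 (0.39, adjusted p = 0.123), and the call against talazoparib without talazoparib replicate 2 (0.34, adjusted p = 0.0638).

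FOXA1 went down. It had 111 and 117 CPM in vehicle, 89.6 and 108 with decitabine, 95.6 and 83.6 with talazoparib, and 90.3 and 86.0 in the combination, so that every treated library lay under both vehicle libraries. The fall passed for talazoparib (log2 fold change -0.35, adjusted p = 0.023) and the combination (-0.38, adjusted p = 0.00379), and the decitabine value was -0.21 (adjusted p = 0.431). The talazoparib call was lost without vehicle replicate 1, vehicle replicate 2 or talazoparib replicate 2 (adjusted p = 0.143, 0.308 and 0.259). The combination call was lost without vehicle replicate 2 (adjusted p = 0.0762) and without combination replicate 2 (-0.35, adjusted p = 0.056), and decitabine without its replicate 2 gave -0.35 and a call (adjusted p = 0.0201). TTC6, which starts 430 bp from FOXA1 on the opposite strand and shares 16 exonic bases with it, fell in the combination as well (-0.74, adjusted p = 9e-04; -0.64 and 0.0222 without combination replicate 2). The strand setting of the counting is not stated, so reads in the shared bases cannot be told apart.

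The GATA factors and PDX1 were called higher in the combination and not with either drug alone. GATA6 went from 22.3 and 26.0 CPM in vehicle to 35.5 and 34.2 CPM (log2 fold change 0.52, adjusted p = 0.00237), with 22.9 and 27.6 CPM for decitabine and 33.6 and 28.2 CPM for talazoparib. GATA4 went from 9.15 and 8.81 to 12.2 and 12.6 CPM (0.46, adjusted p = 0.0152), and PDX1 from 5.25 and 4.89 to 7.06 and 8.09 CPM (0.57, adjusted p = 0.0101). For all 3 genes the combination libraries lay above both vehicle libraries. With decitabine the log2 fold changes were 0.07 for GATA6, 0.19 for GATA4 and 0.2 for PDX1. With talazoparib they were 0.36 for GATA6 (adjusted p = 0.0812), 0.17 for GATA4 and 0.26 for PDX1. In the combination against talazoparib these 3 genes were not called. GATA6 also exceeded decitabine alone (0.45, adjusted p = 0.0146), a call lost without combination replicate 2 (adjusted p = 0.0684), combination replicate 1 (0.0971) or decitabine replicate 1 (0.0919).

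Without combination replicate 2, GATA6 against vehicle remained called (0.55, adjusted p = 0.0159), while GATA4 was at 0.44 (adjusted p = 0.0869) and PDX1 at 0.47 (adjusted p = 0.114). GATA6 lost its call without vehicle replicate 1 (0.42, adjusted p = 0.0802). GATA4 lost it without vehicle replicate 1 (adjusted p = 0.0931), vehicle replicate 2 (0.132) or combination replicate 1 (0.0509), and PDX1 without vehicle replicate 1 (0.0611) or vehicle replicate 2 (0.112).

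FOXA2 and HNF4A were low in EGI-1 and were not called. FOXA2 had 1.05 and 1.37 CPM in vehicle, 2.13 and 1.86 with decitabine, 1.51 and 1.95 with talazoparib and 2.12 and 1.94 in the combination. Its log2 fold changes were 0.73 (adjusted p = 0.321), 0.53 (0.335) and 0.74 (0.0568), the last being 0.81 (0.128) without combination replicate 2. HNF4A had between 3 and 15 counts per library and passed the filter on low counts only through the combination, where it had 13 and 15 counts. Its combination value was 1.29, with a 95% interval from 0.06 to 2.53 and an adjusted p of 0.141, and 1.35 (adjusted p = 0.303) without combination replicate 2.

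Of the 7 members tested in EGI-1, 1 was called for decitabine (0.544% of all genes tested were called), 2 for talazoparib (4.12%) and 5 for the combination (18.7%, of which 11.1% higher and 7.61% lower). Against decitabine the combination changed 2 members (7.68%) and against talazoparib 1 (1.92%). Without combination replicate 2 these last 3 counts were 2, 1 and 1. With upper-quartile factors the combination calls over all genes were 2177 higher and 2244 lower, against 2489 and 1705 with TMM factors. On the log2 scale, the part of the combination change not given by adding both drugs' own changes passed for 0 of 7 members in edgeR, 0 had an unadjusted p under 0.05, and DESeq2 gave 0, where 0.161% of all genes were called. For SOX9 it was -0.1, with a 95% interval from -0.27 to 0.08. Without combination replicate 2 it again passed for 0 of 7 members in edgeR, with SOX9 at -0.09 (adjusted p = 1.0).

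**Figure D2:**
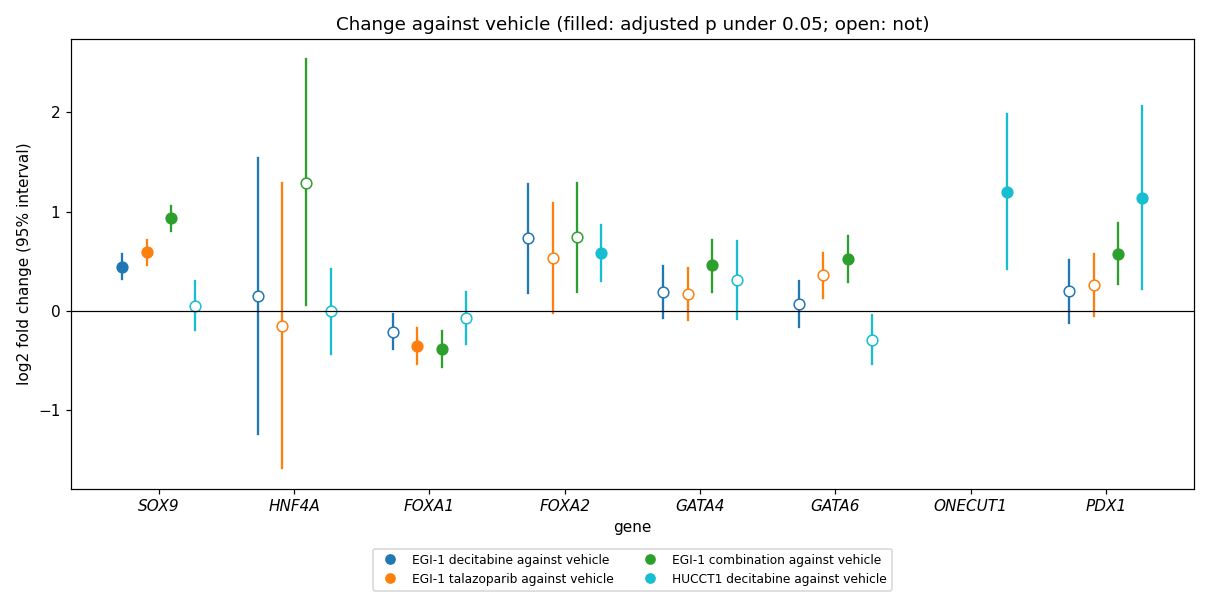
Log2 fold change of each factor against its own vehicle arm, with 95% intervals, for the 3 treatments of EGI-1 and for decitabine in HUCCT1, filled where the adjusted p is under 0.05. SOX9 is filled in all 3 EGI-1 treatments and sits at 0.05 in HUCCT1, where FOXA2, ONECUT1 and PDX1 are filled.

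Among the other foregut and hepatobiliary factors in EGI-1, 2 rose and 7 fell of 21 tested in the combination. Without combination replicate 2 these were 1 and 5. Over all genes in the combination, 11.1% were called higher and 7.61% lower. The median log2 fold change of these factors was -0.155, against -0.0248 over all genes. ELF3, an epithelial ETS factor, fell by 0.75 (adjusted p = 4.3e-05), ONECUT2 by 0.59 (adjusted p = 2.4e-06) and SOX4, a progenitor factor, by 0.57 on the log2 scale (adjusted p = 5e-04), while FOXA3, a further FOXA gene, rose by 1.12 (adjusted p = 0.013), and all 4 were called without that library. ELF3, SOX4 and ONECUT2 were the 3 that fell with talazoparib (-0.49, -0.42 and -0.37), where 4.12% of all genes were called in either direction. With decitabine 0 of 21 passed in edgeR, 1 had an unadjusted p under 0.05, and DESeq2 gave 0.

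The duct markers called against vehicle in EGI-1 rose, apart from FXYD2 in the combination. Notch genes, which act with SOX9 in bile duct formation, moved in both directions. Of 16 duct markers, 3 rose and 1 fell in the combination, a share near the 18.7% of all genes called there. Without combination replicate 2 these were 2 and 0. With decitabine 2 rose and 0 fell (KRT7 at 0.57 and CD24 at 0.37), where 0.544% of all genes were called. With talazoparib 1 rose and 0 fell (CD24 at 0.74), where 4.12% of all genes were called. The duct markers summed to 2930 to 3020 CPM in vehicle and 3070 to 3140 CPM in the combination. In the combination CD24, a surface glycoprotein, rose by 1.27 (adjusted p = 2.5e-09) and KRT7 by 0.7 (adjusted p = 7e-06). Both were called without combination replicate 2, while PROM1 (0.26) and FXYD2 (-1.02) were not. Of 17 Notch pathway genes, 5 rose and 3 fell in the combination, or 3 and 2 without that library. Over all genes in the combination, 11.1% were called higher and 7.61% lower. The ligands DLL4 and JAG2 rose in the combination by 2.31 (adjusted p = 3.1e-04) and 1.72 (adjusted p = 1.5e-06). The target HES1 rose by 0.53 (adjusted p = 2.9e-04), and LFNG, which modifies Notch receptors, fell by 0.96 (adjusted p = 2.8e-05). With decitabine 1 Notch gene rose and 0 fell (JAG2 at 0.96). With talazoparib 1 rose and 1 fell (JAG2 at 0.88 and LFNG at -0.65).

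Genes of differentiated liver, gut and pancreas cells are among the known targets of these factors. Of 8 hepatocyte genes tested in the combination, 1 rose (ASGR1, 1.72, adjusted p = 2.7e-04), which is not above the 18.7% of all genes, and of 9 intestinal and gastric genes 2 rose and 2 fell, with TFF2 at 1.54 and AGR2 at -0.65 among them. Without combination replicate 2 these were 1, and 2 and 1 of 10. Of 3 pancreatic genes 1 rose (BHLHA15, 0.81, adjusted p = 4.6e-04; 0.84 and 0.00392 without that library). Among 18 factors of the same families, FOXL1 (0.85), GATA3 (0.46) and FOXO1 (0.45) rose and CUX1 (-0.23) fell, the last of which was not called without combination replicate 2. Fibroblast markers summed to 43.3 to 50.1 CPM in the combination and 28.7 to 30.8 CPM in vehicle, with 5 of 8 at the floor, and endothelial markers to 30.5 to 31.2 and 20.8 to 22.6 CPM. The mitochondrial share of counts was 1.607 and 1.616% in vehicle and 1.372 and 1.399% in the combination. Their part in the results was not tested.

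Decitabine alone was also tested in HUCCT1, over its 4 libraries and 22479 genes. There FOXA2, ONECUT1 and PDX1 rose. FOXA2 went from 62.3 and 84.6 CPM to 96.4 and 125 CPM (log2 fold change 0.58, SE 0.135, adjusted p = 0.00167). ONECUT1 went from 16 and 21 counts to 37 and 50 counts (1.2, SE 0.379, adjusted p = 0.0158), and PDX1 from 14 and 13 counts to 24 and 37 counts (1.14, SE 0.444, adjusted p = 0.0498). At these low counts ONECUT1 and PDX1 stayed near 1 CPM.

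The FOXA2 call held in every alternative run. With DESeq2 only FOXA2 was called, with adjusted p = 0.155 for ONECUT1 and 0.291 for PDX1. ONECUT1 lost its call without vehicle replicate 1 (adjusted p = 0.105) and without decitabine replicate 2 (0.187), and PDX1 did so without vehicle replicate 1 (0.122), vehicle replicate 2 (0.154) or decitabine replicate 2 (0.437). The 3 of 8 members called were all higher and stand beside 33.5% of all genes tested (19.6% higher and 13.9% lower), a share near that of the members.

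SOX9 in HUCCT1 had 240 and 299 CPM in vehicle and 257 and 306 CPM with decitabine, and the arms overlapped (log2 fold change 0.05, 95% interval -0.19 to 0.30). HNF4A, with 4.28 and 5.68 against 4.31 and 5.71 CPM, had an interval from -0.43 to 0.42, and FOXA1, with 22.8 and 26.6 against 23.3 and 24.0 CPM, from -0.33 to 0.19. GATA6 had 112 and 149 against 108 and 107 CPM (-0.29, adjusted p = 0.0653), and passed without vehicle replicate 1 (-0.49, adjusted p = 0.00305). GATA4 had 6.03 and 10.3 against 10.1 and 10.2 CPM (0.31, adjusted p = 0.219), and passed without vehicle replicate 2 (0.72, adjusted p = 0.00427).

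Of the 21 other foregut and hepatobiliary factors in HUCCT1, 9 rose and 7 fell. Over all genes tested there, 19.6% were called higher and 13.9% lower. These shares stand beside each HUCCT1 list below. SOX17 went from 0.791 and 0.727 to 24.9 and 33.9 CPM (log2 fold change 5.26, adjusted p = 2.6e-16). CDX1, an intestinal factor, became at least 5.01-fold higher and CEBPA at least 4.46-fold higher. Both stayed low with decitabine, at means of 0.436 and 0.388 CPM without TMM factors. ONECUT3 fell by 3.22 (adjusted p = 9.8e-07). ONECUT2, named after its values were seen, rose by 1.02 (adjusted p = 9.2e-04) beside ONECUT1. Of 17 duct markers, 3 rose and 9 fell, with the chloride channel CFTR at 3.71 and the water channel AQP1 at 2.68 against BICC1 at -1.06. The duct markers summed to 10800 to 12600 CPM in vehicle and 6840 to 8080 CPM with decitabine. Of 19 Notch genes 11 rose and 4 fell, and DLL4 rose by 2.81 (adjusted p = 5.9e-07).

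Most called markers of other organs and cell types rose in HUCCT1. Of 12 intestinal and gastric genes 7 rose and 2 fell, led by the mucin MUC2 (5.13, adjusted p = 1.5e-10), of 7 hepatocyte genes 3 rose, and of 5 pancreatic genes 3 rose. Among 17 factors of the same families 7 rose and 5 fell, with GATA2 at 2.28 and GATA3 at 1.33. Fibroblast markers summed to 37.4 to 37.8 CPM in vehicle and 169 to 199 CPM with decitabine. Of 5 tested, 4 were higher and 1 lower, and COL3A1 (named after its values were seen, as is CD3E) had no more than 2 counts. Endothelial markers summed to 6.34 to 6.88 and 29.1 to 30.1 CPM, and leukocyte markers to 3.06 to 3.24 and 5.18 to 5.57 CPM. CD3E rose from 0 and 1 counts to 17 and 23, MS4A1 was at 0 in both arms, and the mitochondrial share of counts was 2.896 and 2.497% in vehicle and 2.045 and 1.595% with decitabine. The part of these values in the members' results was not tested.

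An interaction term in the fit of all 12 libraries asked whether decitabine, given at different doses, moved the members differently in HUCCT1 and EGI-1. It passed for 0 of 7 members in edgeR where 15.9% of all genes passed, 2 members had an unadjusted p under 0.05, and DESeq2 called 1, SOX9. For SOX9 the effect in HUCCT1 minus that in EGI-1 was -0.37 on the log2 scale (95% interval -0.65 to -0.10, adjusted p = 0.0623), and for PDX1 it was 0.96 (0.20 to 1.72, adjusted p = 0.0808). SOX9 passed without HUCCT1 vehicle replicate 1 (-0.53, adjusted p = 0.00458) and without HUCCT1 decitabine replicate 2 (-0.51, 0.0161), GATA6 without HUCCT1 vehicle replicate 1 (-0.55, 0.0219) and PDX1 without HUCCT1 decitabine replicate 1 (1.29, 0.0212). For FOXA2, which rose by 0.58 in HUCCT1 and by 0.73 without passing in EGI-1, the difference of -0.14 had an interval from -0.79 to 0.51. ONECUT1 could not be compared because it was at 0 throughout EGI-1.

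The genes whose log2 CPM followed each member most closely over the 8 EGI-1 libraries were CLIC5 (Pearson r = 0.998) and DBN1 (0.995) for SOX9, PLXNB2 (0.972) and EGLN3 (0.967) for FOXA1, and CYB5R3 (0.962) and MEF2D (0.962) for FOXA2. For GATA4 they were POLE3 (0.998) and LRP3 (0.987), for GATA6 CERK (0.996) and MSX1 (0.988), and for PDX1 GJA3 (0.993) and TMEM121 (0.988). These libraries fall into 4 arms and share their scaling, and the genes are the best of all 22406 tested in EGI-1. HNF4A and ONECUT1, under 1 CPM on average in EGI-1, were left out. Over the 7 libraries without combination replicate 2 the values lay between 0.96 and 0.997. GATA6-AS1, an antisense RNA that shares 94 exonic bases with GATA6, differed between the lines as GATA6 did (log2 difference 2.19, adjusted p = 1.7e-07), and SOX9-AS1, which overlaps SOX9 without shared exonic bases, ran the other way from SOX9 (-0.65, adjusted p = 0.0494). ENSG00000266283, which shares 321 exonic bases with GATA6, was 1.32 higher in HUCCT1 (adjusted p = 0.0117).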

How the data were processed

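RNA was sequenced from 2 cholangiocarcinoma lines in 6 arms of 2 libraries. The authors deposited raw counts per gene, without normalization, for 60651 genes and 12 libraries. The methods name fastp, STAR, GRCh38 and RSEM. The submitters' processing notes name fastp, Trim Galore, HISAT2, featureCounts and GRCh38. All counts are whole numbers, and the strand setting, the handling of multimapping reads and the annotation are not given in the sources used here. The labels name Trizol and the methods RNeasy for RNA isolation.

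The tests used edgeR 4.0.16 under R 4.3.3 (filterByExpr by arm, TMM, robust quasi-likelihood fit, two-sided, Benjamini-Hochberg over all genes tested), with a gene called at an adjusted p under 0.05. HUCCT1, EGI-1 and all 12 libraries were fitted apart. TMM factors lay between 0.866 and 1.06 over 12 libraries. DESeq2 1.42.0, RLE and upper-quartile factors, no filter on low counts, fits of 4 libraries, replicate blocks and leaving out each library were alternatives. The pipeline was checked on simulated data. Symbols, positions and exon lengths come from GENCODE 44, and 170 genes had no symbol. Between replicates the chi-square per gene was 2.73 to 12.6, above counting noise.

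A fold against an arm with at most 3 counts in each library is a lower bound from library totals without TMM factors. log2 CPM used a prior count of 2. The members, lists and tests were chosen with earlier results of these data known. Named genes are the 8 members, up to 4 called genes with the largest change per list and comparison, neighbours of a member, the 2 genes most like each member with at least 1 CPM, and markers that check the labelled cell type (KRT19, SPP1, CFTR, AQP1, ALB and TTR among those listed for this). The lists cover foregut factors, duct, hepatocyte, Notch, intestinal and gastric, and pancreatic genes, factors of the same families, and fibroblast, leukocyte and endothelial markers.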

Additional observations from a re-analysis of the deposited data

How the results depend on the processing

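No alternative turned a member's direction in a called result. Of the member fold changes recomputed, 665 kept their side of the threshold, 27 lost their call and 17 gained one. Members called in HUCCT1 went from 3 to 1 with DESeq2, with talazoparib from 2 to 1 with the replicate block from titles, and in the difference between lines from 0 to 2 without the filter on low counts and to 1 with DESeq2. Over all genes, decitabine in EGI-1 gave 122 calls, 335 without the filter, 60 and 75 with replicate blocks from titles and library names, and 43 in its 4 libraries. The combination against talazoparib gave 431 calls, 897 without the filter, 249 with the replicate block from titles and 700 in 4 libraries. The part beyond the sum gave 36 and 71 without the filter, talazoparib 923 and 1851 in 4 libraries, and the combination against decitabine 1720 and 963 in 4 libraries.

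Leaving out each library in turn gave 1 to 3 members called in HUCCT1, 0 to 2 for decitabine, 1 to 2 for talazoparib, 2 to 4 for the combination against vehicle, 1 to 2 against decitabine, 0 to 1 against talazoparib and 0 to 2 for the difference between lines. Over all genes the same gave 22 to 417 for decitabine, 247 to 500 for talazoparib, 1850 to 2976 for the combination, 853 to 2544 against decitabine, 111 to 440 against talazoparib, 27 to 85 for the part beyond the sum and 2540 to 3761 for the difference between lines. A lone library of an arm is then assumed to vary like the other arms.

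No label says that replicate numbers mark a shared culture, batch or day. The EGI-1 library names form 2 series, which the title numbers follow in the treated arms and cross in vehicle. Deviations of libraries with the same number, or in the same series, correlated between -0.267 and 0.222 in EGI-1, and at 0.242 in HUCCT1 by title number, over 13415 genes. The replicate block from titles also called GATA6 in HUCCT1 (-0.28, adjusted p = 0.00684) and lost FOXA1 for talazoparib (adjusted p = 0.0611). Members under about 20 counts, HNF4A in EGI-1 and PDX1 and ONECUT1 in HUCCT1 vehicle, are limited by depth.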
